A study of Rattus norvegicus with 2 samples.

Results

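The 5 genes here clear glutamate or handle glutamine (Slc1a2, Slc1a3, Slc1a4, Slc1a5 and Glul), and they were examined in cells of the rat cochlear duct. The genes were taken by symbol, and all 5 were found, once each, among 32623 listed genes. Cells came from 2 droplet libraries of Sprague-Dawley rats, 1 at postnatal day 1 (P1) and 1 at postnatal day 7 (P7), with no treatment or altered allele at either age. By the Methods each library was a pool of 40 rats, and the dissection took away the stria vascularis, the spiral ligament and the spiral ganglion. The labels name greater epithelial ridge cells, the tall cells of the developing cochlear duct that lie beside the hair cells. Epithelial markers such as Epcam, however, led only 1 cluster, with 279 P1 and 217 P7 cells. Most cells carried genes of connective tissue or of glia, so clusters are named here for the marker lists that lead them.

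Glutamate is the transmitter that hair cells release onto the fibres of the auditory nerve, and there is no enzyme that breaks it down in the synaptic cleft. It is taken up by sodium-driven carriers of the SLC1 family, of which GLAST (gene Slc1a3) and GLT-1 (Slc1a2) are the glial forms. GLAST is the main carrier known in the cochlea, in supporting cells around inner hair cells, in satellite glia and in fibrocytes of the connective tissue. ASCT1 (Slc1a4) and ASCT2 (Slc1a5) belong to the same family but exchange small neutral amino acids such as serine, alanine and, for ASCT2, glutamine. Glutamine synthetase (Glul) joins glutamate and ammonia into glutamine and is a common companion of glial glutamate uptake.

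The sequences before the RefSeq transcription starts of 3 of these genes (build GRCr8, 250 bases, read 5′ to 3′ along the gene) are shown because Slc1a3 and Slc1a2 had the most alike patterns over the clusters, whereas Glul was found in every class. Core promoter motifs were searched on both strands, the TATA box with the letters TATAAA, the box named for its letters CCAAT, and the box rich in those bases, called the GC box, with the letters GGGCGG. Capitals mark matches. In the 33469 windows of the same length in the table, 12.9% held a TATA box, 34% a CCAAT box and 30.5% a GC box.
Slc1a3, chr2:59557809-59558058, minus strand: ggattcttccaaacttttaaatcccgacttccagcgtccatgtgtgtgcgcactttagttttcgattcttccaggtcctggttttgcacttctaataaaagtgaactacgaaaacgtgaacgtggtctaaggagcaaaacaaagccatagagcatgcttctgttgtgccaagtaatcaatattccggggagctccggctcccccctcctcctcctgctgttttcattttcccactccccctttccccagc
Slc1a2, chr3:109459859-109460108, plus strand: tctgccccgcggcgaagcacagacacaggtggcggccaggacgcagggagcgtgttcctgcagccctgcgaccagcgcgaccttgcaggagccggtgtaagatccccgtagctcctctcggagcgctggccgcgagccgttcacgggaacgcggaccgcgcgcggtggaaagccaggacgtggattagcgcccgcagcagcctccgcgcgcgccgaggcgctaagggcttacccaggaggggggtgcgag
Glul, chr13:68575816-68576065, plus strand: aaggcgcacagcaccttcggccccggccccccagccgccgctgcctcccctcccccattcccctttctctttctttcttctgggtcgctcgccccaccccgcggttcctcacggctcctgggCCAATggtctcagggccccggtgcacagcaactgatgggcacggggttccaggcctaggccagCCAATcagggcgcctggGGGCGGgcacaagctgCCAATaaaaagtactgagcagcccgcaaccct
The Glul window held 3 CCAAT boxes and 1 GC box, and those of Slc1a3 and Slc1a2 held none of the 3 motifs. The Slc1a2 window was rich in G and C (71.2%, against a median of 51.2% for all windows) and that of Slc1a3 was not (48%). The table gives 3 starts for Slc1a3 and 2 each for Slc1a2 and Glul, of which 1 per gene is shown. The window of the other Slc1a2 start held 45.6% G and C, and those of the other Slc1a3 starts 49.2% and 50%. None of these held a motif, so the contrast in G and C depends on the Slc1a2 start. The other Glul window held 1 CCAAT box and 1 GC box. Which start is used in these cells was not measured.

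The P1 library held 14068 cell barcodes and 114285848 UMIs (unique molecular identifiers, 1 for each captured transcript), and the P7 library 14501 barcodes and 101264868 UMIs. Under the limits of the Methods on genes, UMIs and mitochondrial share, 12779 P1 and 12581 P7 cells were kept, with medians of 6565 and 6878 UMIs. The libraries shared 60 barcode sequences. Cells of both ages were clustered together into 26 clusters without the 5 genes, the pathway genes or the markers among the genes used. A level is the share that a gene took of all UMIs in the same cells, given in the usual unit, CPM. Because each age had a single library, the ages could not be tested against each other, and p-values are absent here. All intervals were exact (95%) and cover counting error only, not differences between animals or dissections. UMIs were counted at the 3′ ends of transcripts, so levels are compared between cells for 1 gene and not between genes. The marker lists of the connective tissue clusters, led by Otor, Vcan, Scara3 or Ccn3, come from the study's own text on these libraries, and that text also names Slc1a3 in 2 of its clusters, so where Slc1a3 lies is a description and not independent evidence. Merged clustering set the ages apart in connective tissue and glia. The cells led by the Ccn3 list were mainly of P1 (2198 against 151) and those led by the Scara3 list almost all of P7 (7 against 1047). Both lists are therefore also given as 1 group, the Scara3 or Ccn3 clusters, with 2205 P1 and 1198 P7 cells, and ratios between ages are also given in 23 clusters made after the libraries were integrated.

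Slc1a3 was the gene whose UMIs were most concentrated in 1 group of cells. Its level in the Scara3 or Ccn3 clusters was 918 CPM at P1 (904 to 933) and 609 CPM at P7 (593 to 625). In all other cells it was 142 CPM at P1 and 82.9 CPM at P7, so the group stood 6.45-fold (6.30 to 6.61) above the rest at P1 and 7.34-fold (7.09 to 7.60) at P7. These clusters held 17.3% of P1 cells but 58.8% of the Slc1a3 UMIs, and 9.52% of P7 cells but 45.5% of the UMIs. Scara3 itself, a scavenger receptor gene that names the list, was the gene with the pattern most like that of Slc1a3 (Pearson r = 0.90 of log2 levels over 32 combinations of cluster and library, among 5198 genes). Wls, which carries Wnt proteins to the cell surface, followed at 0.88, and the potassium channel gene Kcnk2 at 0.87.

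Within this group the level was not even. At P1, cluster 2, led by Cav1, Aldh1a2 and Sp5, held 941 CPM (927 to 956), the highest of the 15 clusters compared, and the next was a cluster led by the Vcan list, cluster 7, at 261 CPM. At P7 the highest of 17 clusters was cluster 9, with Calb2 and Aldh1a2 among its leading genes, at 659 CPM (642 to 676), and the next was cluster 4, also led by the Vcan list, at 160 CPM. Slc1a3 was thus 3.61-fold and 4.13-fold above the next cluster, whereas 20.2% of 10759 genes at P1 and 17.1% of 10695 genes at P7 had a highest cluster at least 2-fold above the next. A second cluster led by the Ccn3 list, cluster 22, with Car2 and Apoc4 among its leading genes, was far lower, at 151 CPM at P1 (119 to 189) and 71.2 CPM at P7 (54.3 to 91.7). The high level was therefore found in part of the Ccn3 cells and not in all cells that the list leads.

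Other connective tissue clusters held intermediate levels of Slc1a3. At P1 the order below cluster 2 was cluster 7 at 261 CPM, cluster 5 (led by the Otor list) at 239 CPM, unnamed cluster 3 (Edil3, Crym, Col9a3) at 156 CPM and cluster 8 (Vcan list, led by Penk and Col8a1) at 107 CPM. The intervals of these neighbours did not overlap, except that unnamed cluster 3 and the small cluster 22 did not differ beyond theirs. At P7 the order below cluster 9 was cluster 4 at 160 CPM, unnamed cluster 11 (Pmch and haemoglobin genes) at 124 CPM, the Otor cluster at 122 CPM, unnamed cluster 12 (Gcg, Otos, Car3) at 85.1 CPM and unnamed cluster 1 (Dlx5, Sfrp4, Myoc) at 81.7 CPM, where cluster 11 and the Otor cluster, and likewise clusters 12 and 1, did not differ beyond counting error. Dividing cells of connective tissue (cluster 10) held 215 CPM at P1 and 153 CPM at P7.

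Slc1a3 was low in the glia-like clusters, although GLAST is best known as a glial carrier. Those clusters, led by Sox10 and other glial markers, held 26.2 CPM at P1 (23.0 to 29.7) and 13.9 CPM at P7 (12.1 to 15.9). One of them, cluster 19, with the glial genes Fabp7 and Olig1 but also the neuronal genes Nefh and Sncb among its leading genes, was higher at P1, at 78.1 CPM at P1 and 18.9 CPM at P7. An unnamed integrated cluster, with Fabp7, Aqp4 and Gfap but also Otog among its leading genes, was higher. It held 166 CPM at P7 (105 to 249), from 23 UMIs in 102 shallow cells (a median of 1061.5 UMIs over both ages), and had only 12 P1 cells. The neuron-like cluster, found at P1 only, held 8.08 CPM, and the myelin-like cluster, found at P7 only, 6.65 CPM, the lowest levels of the clusters compared at each age. Epithelial-like cells held 64.2 CPM at P1 and 71.1 CPM at P7, macrophage-like cells 73.2 CPM and 73.3 CPM, pericyte-like cells 68.2 CPM and 39.8 CPM, and endothelial-like cells 18.1 CPM and 25.1 CPM. Free RNA can add UMIs to droplets, and Otor, an abundant secreted product of the connective tissue, was set beside Slc1a3 to read these levels. At P1 there were 46.4 Slc1a3 UMIs per 1000 Otor UMIs over all cells, 40.3 in neuron-like cells (29.6 to 53.6), 47.7 in glia-like cells (41.8 to 54.2), 29.0 in endothelial-like cells and 79.3 in epithelial-like cells (66.8 to 93.7). The intervals of the neuron-like and glia-like cells thus included the ratio of the whole P1 library. At P7 the ratio was 20.5 over all cells, 39.0 in glia-like cells (33.8 to 44.8) and 44.7 in myelin-like cells (19.0 to 90.0). The glia-like ratio was thus above that of the whole library at P7. So were those of epithelial-like cells (55.0, 45.8 to 65.7), pericyte-like cells (52.4, 41.0 to 66.2) and macrophage-like cells (32.9, 26.7 to 40.1). The endothelial-like interval included the ratio of the library (25.6, 18.3 to 34.9). At P1 pericyte-like cells had 64.6 (53.7 to 77.1) and macrophage-like cells 57.2 (46.8 to 69.3), also above the whole library. The part of free RNA in these low levels was not tested.

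Detection gave the same picture. After each cell was thinned to 2000 UMIs, 74.1% of 2168 cells of the Scara3 or Ccn3 clusters had an Slc1a3 UMI at P1 (72.2% to 76.0%) and 60.7% of 1148 at P7 (57.8% to 63.6%), with 37 and 50 shallower cells left out. Without thinning the shares were 94.2% and 85.6%, at median depths of 7019 and 7600.5 UMIs. Neuron-like cells, which should lack the gene, had a share of 1.73% (0.56% to 3.99%) after thinning and 9.69% before it, at a median depth of 21162 UMIs. Glia-like cells had 2.72% at P1 and 2.92% at P7 after thinning, with intervals that overlapped that of the P1 neuron-like cells. No neuron-like cluster was found at P7 to set beside the P7 share. Among the 111 myelin-like cells no Slc1a3 UMI was left after thinning, which allows a share of cells with a UMI of up to 2.70% (a limit of 3 counts), and 6.31% had one without thinning. The group named for Scara3 and Ccn3 was thus the class in which most cells held the transcript.

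**Figure D1:**
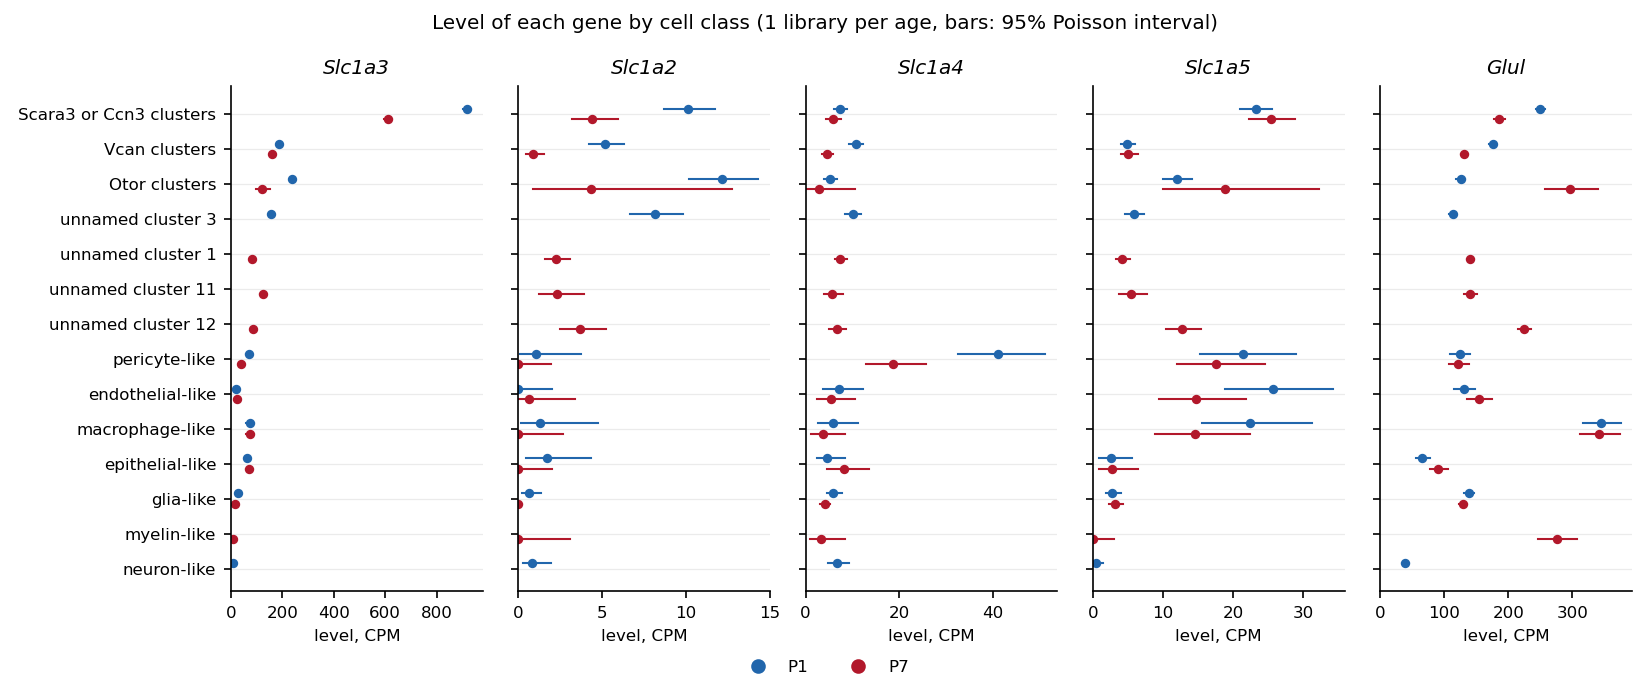
Levels in CPM (x axes, 1 panel per gene) of the 5 genes in each merged cell class with at least 50 cells. Colours give P1 (blue) and P7 (red), and bars are 95% Poisson intervals. Slc1a3 stands apart in the Scara3 or Ccn3 clusters (918 and 609 CPM), Slc1a4 is highest in pericyte-like cells (41.2 and 18.6 CPM) and Glul in macrophage-like cells (345 and 342 CPM), where at P7 its interval overlaps that of the Otor cluster (297 CPM).

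**Figure D2:**
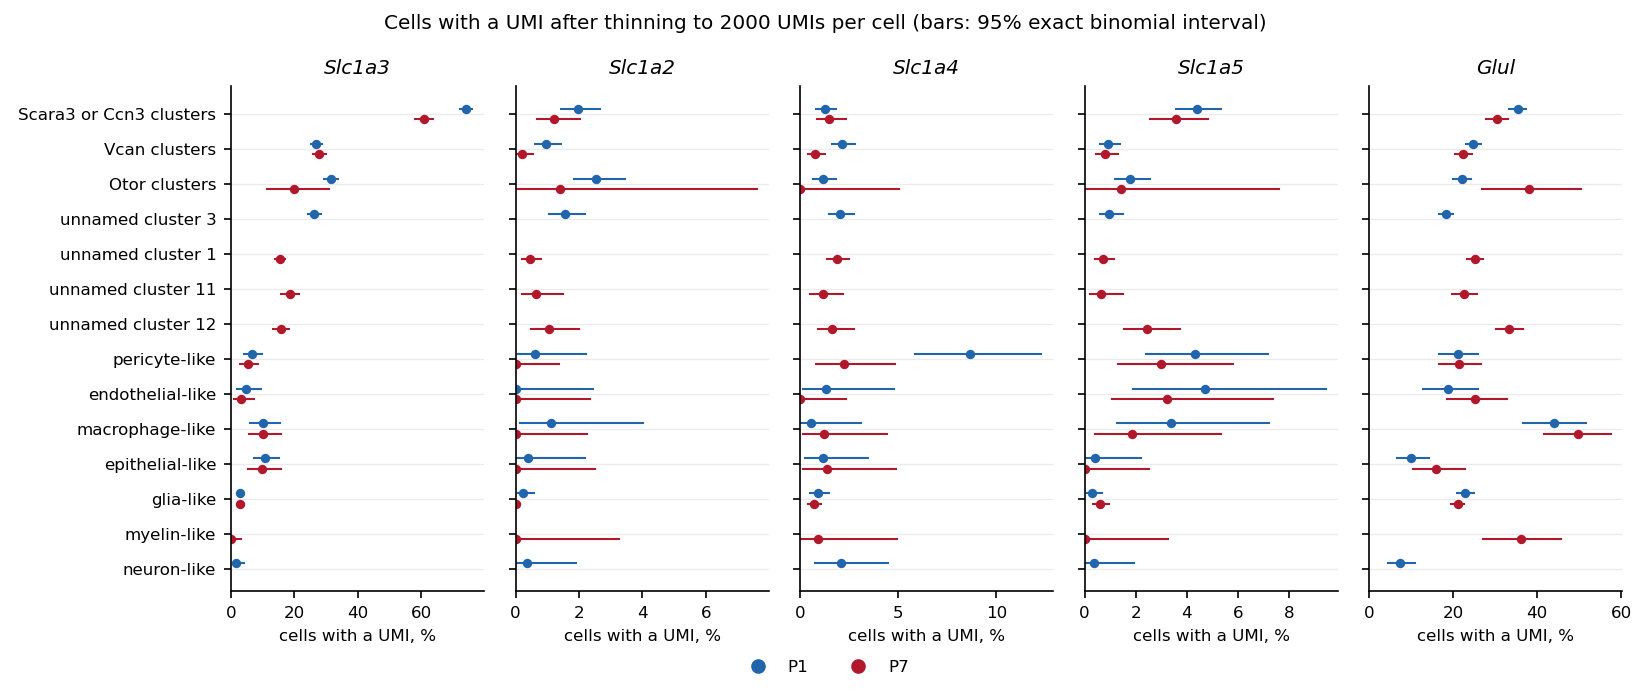
Share of cells (%, x axes) with at least 1 UMI of each gene after thinning to 2000 UMIs per cell, by cell class and age, with exact 95% binomial intervals as bars. Slc1a3 was found in 74.1% of P1 and 60.7% of P7 cells of the Scara3 or Ccn3 clusters, and Glul in 44.1% and 49.7% of macrophage-like cells.

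Over all cells Slc1a3 fell from 283 CPM at P1 to 137 CPM at P7, a log2 ratio of -1.05 (-1.08 to -1.02). Of the 3 genes with at least 10 CPM in the higher library (Slc1a3, Slc1a5 and Glul), Slc1a3 was past 2-fold lower at P7, as were 6.57% of 8222 genes, and none was past 2-fold higher, as were 9.74%. Slc1a5 reached 10 CPM only through P1 (10.0 CPM against 8.10 CPM), so it could not be called higher. The median log2 ratio of all genes at that level was 0.13. Within the Scara3 or Ccn3 clusters the log2 ratio of Slc1a3 was smaller, -0.59 (-0.64 to -0.55), and in the integrated form of the same classes -0.49. The integrated cluster led by the Scara3 list went from 947 CPM at P1 to 700 CPM at P7, and the integrated Ccn3 clusters from 818 CPM to 492 CPM. Slc1a3 was thus lower at P7 whichever way the group was drawn.

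In the Otor cluster, where the merged form had only 86 P7 cells, the log2 ratio of Slc1a3 was -0.97 (-1.30 to -0.66), and in the integrated Otor clusters, with 2312 P1 and 1907 P7 cells, it was -0.96 (-1.04 to -0.87). In the Vcan clusters it was -0.22 (-0.29 to -0.14), but it was 0.040 (-0.042 to 0.121) at a clustering resolution of 1.2 and 0.095 (0.013 to 0.176) with 30 principal components, so no direction is given there. Pericyte-like cells had -0.78 (-1.21 to -0.36). In glia-like cells it was -0.92 (-1.19 to -0.64), at the low levels described above. With cells gated one by one, which left 170 P1 cells, it was 0.18 (-0.60 to 1.08), so no direction is given there either. Epithelial-like, macrophage-like and endothelial-like cells had intervals that included 0. The fall over all cells also followed the make-up of the libraries. When each of the 23 integrated clusters kept its P1 share of UMIs and took its P7 level, the log2 ratio was -0.52, and when each kept its P1 level and took its P7 share it was -0.51. Dissection and cell capture can set such shares, and that cannot be told apart from development with 1 library per age.

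Slc1a2 was scarce, with 606 UMIs in the whole P1 library and 156 at P7, and lay in the same connective tissue as Slc1a3. At P1 the Otor cluster (cluster 5) held 12.1 CPM (10.2 to 14.3) and cluster 2 held 10.2 CPM, with overlapping intervals, and the Scara3 or Ccn3 clusters together held 10.1 CPM (8.72 to 11.7). Unnamed cluster 3 held 8.15 CPM and the Vcan clusters 5.19 CPM. Outside connective tissue little was found: glia-like cells had 6 UMIs in 1781 P1 cells (0.64 CPM) and none in 2912 P7 cells, which allows up to 0.20 CPM by the limit of 3 counts. Endothelial-like cells had 0 UMIs at P1 and 1 at P7. Over the 32 combinations of cluster and library, Slc1a2 and Slc1a3 had a Pearson r of 0.78, the highest of the 10 pairs of these genes. The levels share library and depth, and the r is a description.

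Over all cells Slc1a2 went from 6.18 CPM at P1 to 1.68 CPM at P7, a log2 ratio of -1.88 (-2.15 to -1.63). Within the Scara3 or Ccn3 clusters it went to 4.42 CPM (log2 ratio -1.20, -1.72 to -0.71), past 2-fold lower, as were 5.26% of 7853 genes. It reached the minimum of 10 CPM there only through P1, so it could be called only as lower, and nothing is read from the call. Within the Vcan clusters it went from 5.19 CPM to 0.87 CPM (-2.58, -3.58 to -1.71), and in their integrated form from 4.65 CPM to 1.62 CPM (-1.52, -2.11 to -0.95). In the integrated Otor clusters it went from 11.7 CPM to 3.43 CPM (-1.77, -2.24 to -1.32). Holding the integrated clusters at their P1 shares left a log2 ratio of -1.40, and the change of shares alone gave -0.22. Both values have no interval and rest on 156 P7 UMIs, with 1 library per age. The parts of level, cluster share, dissection and cell capture were not tested. Detection was too thin to follow cell by cell: after thinning, 1.98% of the Scara3 or Ccn3 cells at P1 and 1.22% at P7 had an Slc1a2 UMI, against 1.13% of P1 macrophage-like cells (0.14% to 4.02%) at median depths of 7019 and 7333 UMIs, and without thinning 7.66%, 3.42% and 1.06%. No difference from the macrophage-like cells, which should lack the gene, was detectable in the thinned shares, although the P1 share of the many glia-like cells was lower, at 0.231% (0.0630% to 0.591%), at a median depth of 4280 UMIs.

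**Figure D3:**
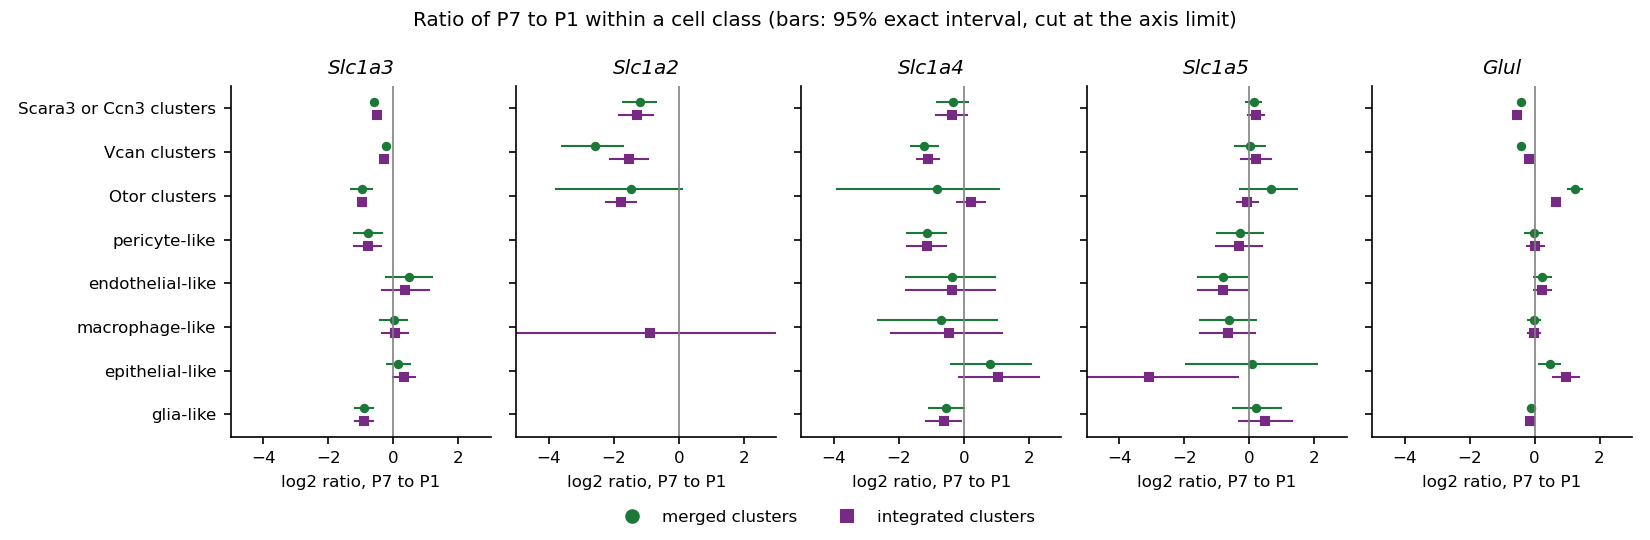
Log2 ratio of P7 to P1 (x axes) of the 5 genes within 8 cell classes, for merged clusters (circles) and integrated clusters (squares), with exact 95% intervals as bars. Classes with a count of 0 at either age have no point. Slc1a2 and Slc1a3 lie left of 0 in the Scara3 or Ccn3 clusters, and Glul lies right of 0 in the Otor clusters (1.24 and 0.66) and left of it in the Scara3 or Ccn3 clusters (-0.43 and -0.53).

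Slc1a4 was the pericyte-high gene of the set. Pericyte-like cells, the contractile cells of small vessels marked by Rgs5, Kcnj8 and Abcc9, held 41.2 CPM at P1 (32.6 to 51.3) and 18.6 CPM at P7 (12.9 to 25.8). At P1 the main pericyte-like cluster, cluster 14, was 3.44-fold above the next cluster, and at P7 it was still the highest, at 18.9 CPM, but cluster 6, with 2 UMIs in its 54 cells, could not be told from it. After thinning, 8.67% of P1 pericyte-like cells (5.84% to 12.3%) and 2.24% at P7 (0.83% to 4.81%) had an Slc1a4 UMI, and without thinning 19.9% and 11.6%, at median depths of 5233 and 5866 UMIs. The lowest share at P1 was in macrophage-like cells, at 0.565% after thinning and 3.17% without it, at a median depth of 7333 UMIs. The lowest at P7 was in endothelial-like cells, with 0 of 155 cells after thinning and 3.74% without it, at 6989 UMIs.

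Within pericyte-like cells the log2 ratio of Slc1a4 was -1.15 (-1.76 to -0.56), and in the integrated form -1.14. It was the only one of the 4 genes tested there past 2-fold lower, against 6.3% of 7920 genes. In the Vcan clusters Slc1a4 went from 10.7 CPM to 4.62 CPM (-1.22, -1.64 to -0.80), past 2-fold lower as were 8.22% of 7749 genes, but it reached 10 CPM there only through P1, so nothing is read from that call. Over all cells the change was smaller, from 8.67 CPM to 6.04 CPM (-0.52, -0.68 to -0.37). Its level in the Scara3 or Ccn3 clusters, 7.39 CPM at P1, was below that of the other cells (8.96 CPM) and did not follow Slc1a3 (r = -0.01). The genes most like it were Lims1, an adaptor of integrin adhesions (r = 0.81), Dlk1, a Notch-related ligand of immature cells (0.79), and Tbc1d1 (0.74).

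Slc1a5 was shared by vessel cells, macrophages and the Scara3 or Ccn3 clusters. At P1 endothelial-like cells held 25.7 CPM (18.9 to 34.2), the Scara3 or Ccn3 clusters 23.2 CPM (21.0 to 25.6), macrophage-like cells 22.4 CPM (15.5 to 31.3) and pericyte-like cells 21.4 CPM (15.3 to 29.0), with overlapping intervals. At P7 the Scara3 or Ccn3 clusters were highest, at 25.4 CPM (22.3 to 28.9), and the Otor cluster, pericyte-like, endothelial-like and macrophage-like cells lay between 14.5 and 18.9 CPM, of which the Otor, pericyte-like and macrophage-like intervals overlapped it. The lowest levels were 0.495 CPM in neuron-like cells (3 UMIs) and 0 UMIs in myelin-like cells, which allows up to 2.49 CPM by the limit of 3 counts. The Scara3 or Ccn3 clusters were 3.27-fold above all other cells at P1 and 4.15-fold at P7. This group was not even. The integrated cluster led by the Scara3 list held 29.2 CPM at P1 (25.8 to 33.0) and 32.7 CPM at P7 (28.2 to 37.8). The integrated Ccn3 clusters held 16.8 CPM (14.4 to 19.4) and 14.5 CPM (10.7 to 19.2), with no overlap at either age.

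Between the ages Slc1a5 kept its level in the Scara3 or Ccn3 clusters within counting error (log2 ratio 0.13, -0.10 to 0.36). Over all cells it went from 10.0 CPM to 8.10 CPM (-0.31, -0.45 to -0.17), of which the shares of the integrated clusters alone gave -0.28 and their levels alone -0.08. In endothelial-like cells the log2 ratio was -0.81 (-1.58 to -0.07), from 47 and 24 UMIs. After thinning, 4.38% of the Scara3 or Ccn3 cells at P1 and 3.57% at P7 had an Slc1a5 UMI (15.2% and 16.4% without thinning), against 0.29% of P1 glia-like cells (1.24% without thinning) at median depths of 7019, 7600.5 and 4280 UMIs. Unlike Slc1a2 and Slc1a3, then, Slc1a5 had no lower level at P7 in these clusters. The genes most like it were the early response genes Ier3 (r = 0.79) and Rgs2 (0.78) and the kinase gene Lyn (0.77).

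Glul had a broad pattern, and among merged clusters its highest level was in macrophage-like cells. Macrophage-like cells, marked by Lyz2 and C1qa and also led by the neutrophil genes S100a8 and S100a9, held 345 CPM at P1 (316 to 376) and 342 CPM at P7 (312 to 375). At P1 cluster 2 followed at 254 CPM (247 to 262) and cluster 7 at 213 CPM (204 to 222), and the lowest levels were in epithelial-like cells, at 65.9 CPM, and neuron-like cells, at 39.3 CPM (34.4 to 44.6). At P7 the next were the 86 cells of the Otor cluster at 297 CPM (257 to 340) and the myelin-like cells at 276 CPM (247 to 307), which overlapped, and then unnamed cluster 12 (Gcg, Otos, Car3) at 225 CPM. Glia-like cells held 139 CPM at P1 and 129 CPM at P7, close to the level over all cells. The highest merged cluster was 1.36-fold above the next at P1 and 1.15-fold at P7, so that Glul, unlike Slc1a3, had no single cluster of its own. After integration, the P1 cells led by the Scara3 list held 370 CPM of Glul (358 to 383). Integrated macrophage-like cells held 341 CPM at P1 (313 to 372), with an overlapping interval. The closest genes to Glul by pattern had a Pearson r of only 0.66 (Serpinb1a, a protease inhibitor), 0.66 (Rps18, a ribosomal protein) and 0.65 (Ada, adenosine deaminase).

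After thinning, 44.1% of macrophage-like cells at P1 and 49.7% at P7, and 36.0% of myelin-like cells, had a Glul UMI, against 7.27% of neuron-like cells (4.55% to 10.9%). Without thinning the neuron-like share was 54.3%, at a median depth of 21162 UMIs, and that of macrophage-like cells 76.7% and 77.8%, at 7333 and 6702 UMIs, so that the deeper neuron-like cells came close to the others only before thinning. At P7 no neuron-like cluster was found, and the lowest share was in epithelial-like cells, at 15.9%, with a median depth of 6926 UMIs and 72 of 217 cells left out as shallower. In the Scara3 or Ccn3 clusters 35.3% of P1 and 30.4% of P7 cells had a Glul UMI after thinning. Both Slc1a3 and Glul were found in 27.9% of these cells at P1 (26.0% to 29.8%) and 19.9% at P7 (17.7% to 22.4%), against 0.87% and 0.40% of glia-like cells. Among the P1 cells of these clusters with an Slc1a3 UMI 37.6% had a Glul UMI, and among those without one 28.7%, a description that shares library and thinning. The uptake carrier and the glutamine-forming enzyme were thus found together most often in the Scara3 or Ccn3 clusters, among the named classes, and seldom in glia-like cells. The joint share cannot exceed the share with Slc1a3, which was highest in the former and very low in the latter. Whether the pair went together beyond their single shares was not tested.

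Over all cells Glul was 153 CPM at P1 and 155 CPM at P7, a log2 ratio of 0.02 (-0.01 to 0.05) that became -0.088 with median-of-ratios scaling, so no direction is given. Within clusters it moved both ways. In the Scara3 or Ccn3 clusters it went from 250 CPM to 186 CPM (log2 ratio -0.43, -0.51 to -0.35), and the integrated cluster led by the Scara3 list went from 370 CPM to 212 CPM (-0.80, -0.90 to -0.71). The Vcan clusters went from 175 CPM to 132 CPM (-0.41, -0.50 to -0.33), and in integrated form from 144 CPM to 129 CPM (-0.16, -0.24 to -0.09). In the Otor cluster Glul went from 125 CPM to 297 CPM (1.24, 1.02 to 1.46), the only one of the 4 genes tested there past 2-fold higher, against 12.6% of 7774 genes, and 9.53% were past 2-fold lower. Slc1a2 was among those (-1.47, -3.77 to 0.10), but with 3 UMIs at P7, an interval that included 0 and 10 CPM reached only through P1. That cluster had 86 P7 cells, and in the larger integrated Otor clusters the rise was smaller, from 122 CPM to 193 CPM (0.66, 0.58 to 0.75). Epithelial-like cells had 0.46 (0.14 to 0.79), whereas macrophage-like, pericyte-like, endothelial-like and glia-like cells had intervals that included 0. In glial cluster 19 it went from 89.1 CPM to 148 CPM (0.73, 0.35 to 1.11), while Slc1a3 in the same cells had a log2 ratio of -2.04 (-2.84 to -1.31), and of -1.35 (-2.04 to -0.70) in the integrated cluster with most of the same leading genes.

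**Figure D4:**
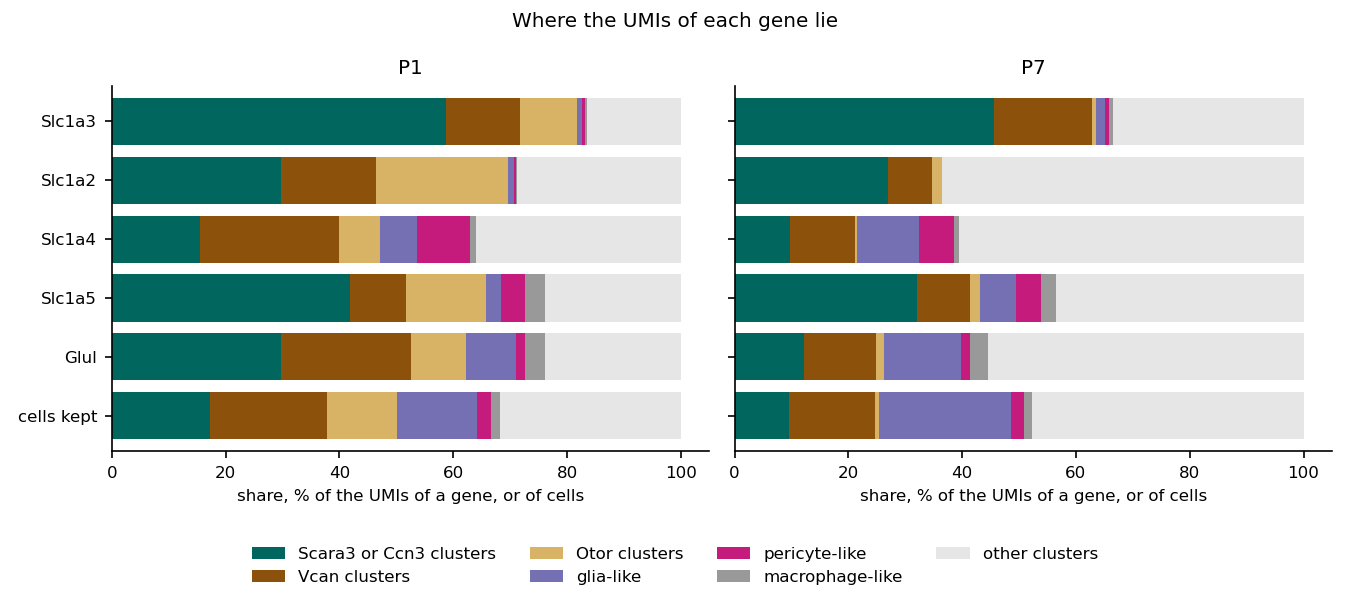
Share (%) of the UMIs of each gene that came from 6 groups of clusters, at P1 (left) and P7 (right), with the share of cells kept in the lowest bar. The Scara3 or Ccn3 clusters held 58.8% of Slc1a3 UMIs at P1 and 45.5% at P7, from 17.3% and 9.52% of the cells.

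A list of 44 further genes of glutamate handling was counted by role, with 24 of them at 10 CPM or more in the higher library over all cells. None of the 3 other SLC1 transporters reached that level. Slc1a1, the neuronal carrier EAAC1, was highest in glial cluster 19 at P1, at 23.9 CPM. Of 8 glutamine and cystine carriers 5 were tested and none was past 2-fold either way. Several of them were highest in endothelial-like cells at both ages: Slc38a3, a glutamine carrier, at 185 CPM at P1 and 142 CPM at P7, Slc38a5 at 100 CPM and 149 CPM, Slc7a5, the large neutral amino acid carrier LAT1, at 215 CPM and 433 CPM, and its partner Slc3a2 at 1247 CPM and 1771 CPM. Slc38a2, which loads cells with small neutral amino acids, was broad (123 CPM and 117 CPM over all cells). Slc7a8, the carrier LAT2, was highest in the Otor cluster at P1, at 277 CPM, and in unnamed cluster 11 at P7, at 318 CPM, and Slc38a1 in neuron-like cells at P1, at 56.6 CPM. Slc7a5 and Slc38a5 were low in the Scara3 or Ccn3 clusters at P1, at 3.89 CPM and 1.13 CPM. Slc38a3, at 37.3 CPM and 47.8 CPM, was above its level over all cells there, and Slc3a2 was nearly as high in the Otor cluster at P1 (1118 CPM) as in endothelial-like cells.

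Of 12 glutamate and serine enzymes 9 were tested, and only Psph, the last step of serine synthesis, was past 2-fold (higher, against 9.74% of all genes), reaching 40.8 CPM at P7 (log2 ratio 1.03, 0.95 to 1.11). Phgdh, the first step, was highest in dividing cells (cluster 13), at 306 CPM at P1 and 426 CPM at P7. At P7 cluster 4, led by the Vcan list, was nearly as high, at 420 CPM. Psat1, the middle step, had a log2 ratio of 0.55 over all cells. The transaminases Got1, at 231 CPM, and Got2, at 270 CPM, were highest in neuron-like cells at P1, and Glud1, glutamate dehydrogenase, in endothelial-like cells at 122 CPM. Of 3 vesicular transporters, which fill synaptic vesicles with glutamate, only Slc17a7 was tested. It was past 2-fold lower (-4.34, -4.78 to -3.92), as were 6.57% of all genes. Slc17a7 reached 10 CPM through P1 alone, so it could be called only as lower, and nothing is read from the call. It was highest in neuron-like cells at P1, at 148 CPM, and the P7 library had no such cluster, its highest level being 13.0 CPM in glial cluster 19. After integration 292 P1 and 30 P7 cells were neuron-like, so the lower level over all cells cannot be told apart from fewer neuron-like cells in the P7 library.

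Of 12 ionotropic glutamate receptors 6 were tested. Gria2, an AMPA receptor subunit, was the only one past 2-fold, and lower, as were 6.57% of all genes (27.9 CPM at P1 and 3.51 CPM at P7, -2.99, -3.16 to -2.82). It reached 10 CPM only through P1, so it could be called only as lower, and nothing is read from the call. It was highest in the Otor cluster at P1, at 147 CPM, and in endothelial-like cells at P7, at 123 CPM (69.5 CPM at P1), whereas Gria3 and Gria4 were highest in unnamed cluster 11 at P7, at 121 CPM and 149 CPM. Grin2b, an NMDA receptor subunit, was highest in glial cluster 6 at both ages, at 103 CPM and 136 CPM, and Grin1, the obligatory NMDA subunit, in neuron-like cells at P1, at 67.0 CPM. Receptor transcripts thus lay in the Otor cluster, an unnamed cluster, endothelial-like cells and glia as well as in neurons.

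Of 6 genes for ion and water movement known to work beside glial uptake, 3 were tested and 2 were past 2-fold higher, against 9.74% of all genes tested. Atp1b2, a beta subunit of the sodium pump whose gradient drives the carriers, was highest in pericyte-like cluster 14, at 79.4 CPM at P1 and 217 CPM at P7, and went from 14.0 CPM to 53.5 CPM in the Scara3 or Ccn3 clusters. Gja1, the gap junction protein connexin 43, was highest in endothelial-like cells, at 35.0 CPM and 132 CPM. Kcnj10 and Aqp4, the potassium and water channels that accompany glial uptake in brain, were at most 3.33 CPM and 15.9 CPM in any merged cluster compared. Kcnj16 was highest in epithelial-like cells at P7, at 54.1 CPM.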

How the data were processed

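Single-cell RNA was measured by 10x Genomics 3′ chemistry in 1 library at P1 and 1 at P7. The authors deposited raw UMI counts per gene and barcode, made, per the labels, with Cell Ranger 3.1.0 on the rat build rn6 and analysed by them in Seurat 3.1.1. A cell was kept if it had over 500 and under 5000 genes, 500 UMIs or more and a mitochondrial share below 25%. Both libraries were merged and clustered in Seurat 5.3.0 (R 4.3.3, Matrix 1.6.5) on 1879 of 2000 variable genes (the 5 genes, the pathway genes and the markers, 121 in all, left out), with 10 components, 20 neighbours and resolution 0.8. A cluster took a marker list's name when at least 3 of its genes were each in at least 10% of its cells. The mean log2 ratio to all other cells also had to be at least 1 and highest. That rule, the use of myelin and dividing lists, and the setting apart of clusters with over 50% called doublets were settled after the clusters had been seen. Doublets (Scrublet in scanpy 1.11.5, 4.87% of P1 and 6.16% of P7 cells) were removed only in an alternative.

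Counts were summed per cluster and library and divided by all UMIs of the same cells. Poisson, binomial and conditional binomial intervals were exact (Python 3.11.15, numpy 2.4.6, scipy 1.17.1, pandas 2.3.3, figures in matplotlib 3.10.9) and were tested on simulated data. A ratio was read against all genes with at least 10 CPM in the higher library and called past 2-fold. Shares were taken after thinning to 2000 UMIs per cell, with 1000 as an alternative. The genes named beside each gene were the 3 with the highest Pearson r of log2(CPM + 5). Total depth came to 114285848 (P1) and 101264868 (P7) UMIs. The genes and lists were chosen with earlier results of these data known. Alternatives were other filters, clusterings, scalings and gates. Promoter sequences came from RefSeq (GRCr8), which matched 4 of the 5 genes, and protein sequences were not used here. Some listed pathway genes and markers are counted but not reported here by name.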

Additional observations from a re-analysis of the deposited data

Results flagged for a closer look

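The change of Glul between P1 and P7 went in opposite directions in different cell classes, with counting intervals that excluded 0 on both sides. Its log2 ratio was 1.24 in the Otor cluster and 0.46 in epithelial-like cells, but -0.43 in the Scara3 or Ccn3 clusters and -0.41 in the Vcan clusters. In integrated clusters it was 0.66 in the Otor clusters, 0.97 in epithelial-like cells, -0.53 in the Scara3 or Ccn3 clusters and -0.16 in the Vcan clusters. There was 1 library per age, so the difference between classes was not tested. The Otor cluster held 86 P7 cells.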

How the results depend on the processing

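No paired analysis was possible because each age had 1 library. For Slc1a3 over all cells (log2 ratio -1.05), all deposited barcodes gave -1.09, leaving out ribosomal, mitochondrial and haemoglobin genes -1.13 and median-of-ratios scaling -1.16. Glul over all cells (0.02) was -0.032 with under 10% mitochondrial UMIs, -0.061 without those gene classes, -0.088 with median-of-ratios scaling and -0.049 as a mean of per-cell CPM. In the Scara3 or Ccn3 clusters the Slc1a3 ratio (-0.59) was -0.54 at resolution 0.4, -0.49 after integration and -0.69 without those gene classes. Its P1 level (918 CPM) was 881 at resolution 0.4, 888 at 1.2, 851 with 30 components, 876 after integration, 819 with cells gated one by one and 1334 without those gene classes, and its P7 level (609 CPM) was 583 at resolution 1.2, 580 with 30 components, 536 gated one by one and 829 without those gene classes. The Glul ratio there (-0.43) was -0.55 at resolution 1.2, -0.51 with 30 components, -0.53 after integration and -0.52 without those gene classes. The Slc1a3 ratio took the other sign in glia-like cells gated one by one (0.18, -0.60 to 1.08, with 170 P1 cells). In the Vcan clusters it did so at resolution 1.2 (0.040, -0.042 to 0.121) and with 30 components (0.095, 0.013 to 0.176). The first 2 of these intervals included 0, and the cause was not tested. Over genes with 10 CPM in both libraries the median log2 ratio was 0.11, a shift that median-of-ratios scaling takes out. Of all ratios under alternatives, 299 moved by less than their counting interval, 48 by more, and 3 took the other sign from a main interval that excluded 0. With a minimum of 50 CPM, which leaves fewer genes, the genes past 2-fold over all cells were 144 lower and 238 higher, against 540 and 801. Depth limited Slc1a2, with 156 UMIs at P7.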

Other observations

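The epithelial-like cells, the class nearest to the label of the samples, were split by whether a cell had at least 3 UMIs of tectorial membrane genes, a split made after the data had been seen. Glul was 46.8 CPM in the 178 P1 cells with such UMIs and 109 CPM in the 101 without, and at P7 73.0 CPM in 170 cells and 174 CPM in 47 cells. Slc1a3 was 64.0 CPM and 64.7 CPM at P1, and 76.3 CPM (63.0 to 91.6) and 46.6 CPM (26.1 to 76.9) at P7. The last value came from 15 UMIs in 47 cells, and the P7 intervals overlapped. These are values of cells within 1 library at each age, with no test.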
